A study of Mus musculus with 8 samples.

Results

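Ephrins and their Eph receptors were followed in Lewis lung carcinoma (LLC) cells, a mouse lung tumor line, with and without factor-inhibiting HIF (FIH, gene Hif1an). The 10 genes described here, of 53700 in the count table, are Efna1, Efna2, Efna4, Efna5, Efnb1, Efnb2, Epha2, Epha4, Ephb2 and Ephb4. They were picked because Efna5 fell strongly in FIH-KO cells, so FIH-KO over WT is the contrast they were chosen by. In that contrast their values are descriptions without a test. RNA was sequenced from WT and FIH-KO cells kept for 16 hours in normoxia (21% O2) or in hypoxia (1% O2). The 4 groups had 2 libraries each, 8 in all. The FIH-KO cells were made from LLC cells with a CRISPR/Cas9 guide against exon 2 of Hif1an and single-cell dilution, so clonal differences and the loss of FIH cannot be told apart. All groups grew in DMEM with serum and received no other treatment. The sources do not say that the 2 libraries of a group came from separate cultures, and p values then measure only the spread between these libraries.
Eph receptors form a large family of receptor tyrosine kinases, and ephrins are their ligands on neighboring cells. Ephrin-A proteins are held in the membrane by a lipid anchor and mostly bind EphA receptors, while ephrin-B proteins cross the membrane and mostly bind EphB receptors. Contact between the cells sends a forward signal into the cell with the receptor and a reverse signal into the cell with the ephrin. The family is known for sorting cells at tissue boundaries, guiding axons and shaping blood vessels, and in carcinomas EphA2 is among its most studied members.
Library totals ran from 14519731 to 18177016 reads on genes. Hif1an, the targeted gene, had 584 to 784 reads in the FIH-KO libraries and 1231 to 1609 in the WT libraries. The paper checked the absence of FIH protein in its knockout cells by Western blot. FIH-KO over WT, Hif1an stood at -1.20 on the log2 scale at 21% O2 (adjusted p = 3.1e-05, edgeR) and at -0.85 at 1% O2 (adjusted p = 0.00031). All 10 hypoxia genes used as a check (among them Vegfa, Slc2a1 and Pdk1) rose in WT cells at 1% O2, and 9 rose in FIH-KO cells. Over all tested genes 16.9% and 8.84% were called higher (adjusted p under 0.05). The exception was Car9, with 2 reads in each WT normoxia library and 27 to 49 in WT hypoxia. In FIH-KO cells Car9 had 4 to 5 reads in normoxia and 2 to 5 in hypoxia. Of the 8 lung epithelium and carcinoma markers 3 were tested, the keratin genes Krt8, Krt18 and Krt19. Krt7 was not tested, while Epcam, Nkx2-1 and Sftpc had 0 reads in every library and Cdh1 at most 1. Krt8 rose in FIH-KO cells by 1.02 at 21% O2 (adjusted p = 0.00066, edgeR) and by 1.00 at 1% O2 (adjusted p = 0.00083). Krt18 and Krt19 were not called in that contrast, where 15.2% and 14.1% of all tested genes were called higher. The median log2 fold change of the 3 was -0.05 at 21% O2 and 0.49 at 1% O2. Krt19 rose with hypoxia by 3.20 in WT (adjusted p = 0.00056) and 3.74 in FIH-KO cells (adjusted p = 0.00040), and Krt18 fell by 0.59 in WT cells (adjusted p = 0.0231).

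All 5 mesenchymal markers were tested, and 3 rose in FIH-KO cells at both O2 levels. Over all tested genes 15.2% were called higher in normoxia and 14.1% in hypoxia. Cdh2 and Pdgfrb were not called in that contrast. In normoxia Acta2 (smooth muscle actin) rose by 3.10 (adjusted p = 0.0034, edgeR), Fn1 (fibronectin) by 1.68 (adjusted p = 3.5e-05) and Vim (vimentin) by 0.52 (adjusted p = 0.0173). In hypoxia the values were 2.96 (adjusted p = 0.0498), 1.10 (adjusted p = 0.00056) and 0.58 (adjusted p = 0.0102). Hypoxia raised Fn1 by 1.17 in WT (adjusted p = 0.00031) and 0.60 in FIH-KO cells (adjusted p = 0.0259), and Acta2 fell by 3.29 (adjusted p = 0.0250) and 3.43 (adjusted p = 0.0040). Of the 5 endothelial and 5 immune markers, 1 of each passed the filter on low counts. Lyz2 (lysozyme) had 2 to 9 reads in WT and 30 to 107 in FIH-KO libraries and rose in FIH-KO cells by 3.74 at 21% O2 (adjusted p = 0.00044) and by 3.75 at 1% O2 (adjusted p = 0.0010). Cdh5 (VE-cadherin) had at most 2 reads in normoxia, 18 to 35 in WT hypoxia and 3 to 5 in FIH-KO hypoxia. It rose by 4.01 with hypoxia in WT cells (adjusted p = 0.0010) and fell by 2.62 in FIH-KO hypoxia (adjusted p = 0.0051). The other endothelial and immune markers had at most 8 reads in any library. Some of these calls were lost with 1 library left out: Acta2 in FIH-KO over WT hypoxia without 5 of the 8 libraries and with hypoxia in WT cells without 3, Krt18 without 3, Vim without 2 in normoxia and 1 in hypoxia, Fn1 with hypoxia in FIH-KO cells without 2, and Cdh5 in FIH-KO hypoxia without 1. The part of these shifts in the values below was not tested.
Among the 4 ephrin-A ligands, Efna5, which encodes the axon guidance ligand ephrin-A5, was the member that led to the choice. Levels are given as counts scaled to the total of the tested genes in each library, with TMM factors (CPM). In WT cells Efna5 stood at 8.10 and 7.35 CPM in normoxia and at 7.40 and 12.4 in hypoxia. In FIH-KO cells it stood at 0.953 and 0.448 CPM in normoxia and at 1.25 and 0.911 in hypoxia. Every FIH-KO library lay below every WT library, with 8 to 20 reads against 124 to 181. FIH-KO over WT, the level was 11.0-fold lower in normoxia (log2 fold change -3.46, standard error 0.39, n = 2 a group) and 9.03-fold lower in hypoxia (-3.17, standard error 0.37). At this depth a count of 3 reads corresponds to between 0.168 and 0.205 CPM, so a low level of Efna5 remained above that floor in all FIH-KO libraries.
The gene lies on the minus strand of chromosome 17 (GRCm39, chr17:62909956-63188312). Its promoter, in the RefSeq promoter table, is shown because it is rich in CpG and holds several hypoxia response cores, the short motif that HIF binds. The 250 bases before the start (chr17:63188313-63188562, minus strand, read 5′ to 3′ toward the gene) carry matches to GCGTG in capitals, which read CACGC here because they lie on the other strand.
Efna5: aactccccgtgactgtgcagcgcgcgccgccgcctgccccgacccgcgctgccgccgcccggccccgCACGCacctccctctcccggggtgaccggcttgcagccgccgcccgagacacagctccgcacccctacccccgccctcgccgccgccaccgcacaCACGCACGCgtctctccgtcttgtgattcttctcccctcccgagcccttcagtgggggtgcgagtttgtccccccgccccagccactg
These matches begin 183, 88 and 84 bases before the start, and the latter pair share a base. Over the 300 bases from 250 before to 50 after the start, GC made up 73.3% and the ratio of observed to expected CpG was 1.10, against medians of 52.7% and 0.384 over all 32851 mouse promoters of that table.
The genes around Efna5 had values far from its own. Of the tested genes whose midpoints lie within 5 Mb, 21 besides Efna5 had log2 fold changes of FIH-KO over WT from -0.39 to 1.09 at 21% O2 and from -0.91 to 1.04 at 1% O2. Their medians were 0.36 and 0.21, and the median over chromosome 17 was 0.17 in normoxia and 0.12 in hypoxia. The nearest neighbor with more than 50 reads on average was Fbxl17, at 0.45 (adjusted p = 0.0237, edgeR) and 0.21 (adjusted p = 0.261). Fer, a tyrosine kinase gene on the same side, stood at 0.41 (adjusted p = 0.0289) and 0.72 (adjusted p = 0.00173).

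**Figure D1:**
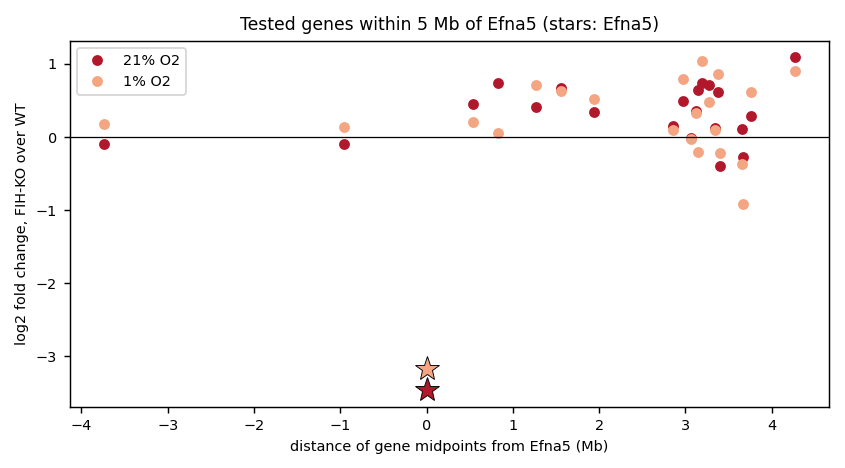
The log2 fold change of FIH-KO over WT (vertical axis) of Efna5 (stars) and of the 21 other tested genes within 5 Mb (circles), by the distance of gene midpoints in Mb, in normoxia (dark) and hypoxia (light). Efna5 sits at -3.46 and -3.17, and the other genes lie between -0.91 and 1.09.

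The genes whose level over the 8 libraries was most like that of Efna5 were sought among 10575 tested genes that averaged at least 50 counts. The 5 with the highest Pearson correlation of log2 CPM were Baiap2l1 (r = 0.992), Flt1 (r = 0.990), Adgrl2 (r = 0.987), Slc30a7 (r = 0.986) and Morn4 (r = 0.986). All 5 had fewer reads in each FIH-KO library than in each WT library, so the 8 points share the split by genotype. Flt1, a VEGF receptor gene, had 488 to 786 reads in WT and 28 to 62 in FIH-KO libraries, while Slc30a7, a zinc transporter gene, had 849 to 922 and 656 to 718. Baiap2l1 held 121 to 178 reads in WT and 8 to 21 in FIH-KO libraries, a range close to that of Efna5.
The other ephrin-A members differed much less with genotype. Efna1, which encodes ephrin-A1, a chief ligand of EphA2, stood at 4.88 and 4.32 CPM in WT normoxia, 5.88 and 7.71 in WT hypoxia, 6.43 and 5.54 in FIH-KO normoxia and 7.49 and 6.12 in FIH-KO hypoxia. WT normoxia held the lowest libraries, and the other 3 groups overlapped. FIH-KO over WT gave a log2 fold change of 0.38 at 21% O2 (standard error 0.24) and 0.01 at 1% O2 (standard error 0.24).
Efna2 (ephrin-A2) ranged from 3.21 to 4.15 CPM over the WT libraries and from 4.10 to 5.18 over the FIH-KO libraries, with log2 fold changes of 0.34 (standard error 0.27) in normoxia and 0.48 (standard error 0.27) in hypoxia. Efna4 (ephrin-A4) ranged from 3.47 to 5.21 CPM in WT and from 2.62 to 4.29 in FIH-KO cells, with log2 fold changes of -0.22 (standard error 0.28) and -0.36 (standard error 0.29). The FIH-KO libraries of Efna2 lay above the WT libraries within each O2 level, and those of Efna4 overlapped with WT in normoxia and lay below WT in hypoxia. Efna1 and Efna4 lie together on chromosome 3, on the minus strand (chr3:89179037-89188449 and chr3:89240695-89245373), with Efna3 between them. The median FIH-KO over WT log2 fold change over that chromosome was -0.36 in normoxia and -0.41 in hypoxia.
Of the ephrin-B ligands, Efnb1 was higher in FIH-KO cells at both O2 levels, again without a test. Efnb1, the gene of ephrin-B1, stood at 0.835 and 1.01 CPM in WT normoxia and at 1.23 in both WT hypoxia libraries. In FIH-KO cells it stood at 4.11 and 5.32 CPM in normoxia and at 4.25 and 3.91 in hypoxia, so that all 4 FIH-KO libraries lay above all 4 WT libraries. The level was 5.08-fold higher in normoxia (log2 fold change 2.34, standard error 0.32) and 3.30-fold higher in hypoxia (1.72, standard error 0.31).
The gene is on the X chromosome (chrX:98179680-98205454, plus strand), whose median log2 fold change was 0.08 in normoxia and 0.14 in hypoxia. Its promoter is printed beside that of Efna5 because the pair moved in opposite directions and both hold a GCGTG match. The 250 bases before the Efnb1 start (chrX:98179417-98179666, plus strand) hold 1 match on the gene's own strand, in capitals, that begins 48 bases before the start.
Efnb1: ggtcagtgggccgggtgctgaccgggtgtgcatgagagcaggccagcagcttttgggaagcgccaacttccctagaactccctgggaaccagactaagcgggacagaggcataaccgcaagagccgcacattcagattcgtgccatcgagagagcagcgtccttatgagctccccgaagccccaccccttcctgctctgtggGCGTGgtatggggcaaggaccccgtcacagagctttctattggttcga
The CpG ratio of the Efnb1 promoter was 0.53, below that of Efna5.
Efnb2, the gene of ephrin-B2, which marks arteries and binds EphB4, had a wide spread between its FIH-KO libraries at both O2 levels. Its WT libraries stood at 22.9 and 29.3 CPM in normoxia and 23.5 and 18.6 in hypoxia, and its FIH-KO libraries at 26.3 and 45.8 in normoxia and 15.8 and 27.9 in hypoxia. The groups overlapped, with 1 FIH-KO normoxia library far above the other 7. FIH-KO over WT gave 0.47 (standard error 0.28) in normoxia and 0.05 (standard error 0.29) in hypoxia.
Among the receptors, Ephb4 was lower in FIH-KO cells and Epha2 carried most of the EphA reads. Ephb4 encodes the venous receptor of ephrin-B2 and stood at 23.6 and 27.0 CPM in WT normoxia and 22.8 and 24.0 in WT hypoxia. In FIH-KO cells its level was 6.73 and 4.87 CPM in normoxia and 6.75 and 3.84 in hypoxia. All FIH-KO libraries, with 59 to 113 reads, lay below all WT libraries, with 352 to 455. The level was 4.36-fold lower in normoxia (log2 fold change -2.13, standard error 0.24) and 4.40-fold lower in hypoxia (-2.14, standard error 0.24). The gene lies on chromosome 5 (chr5:137348274-137376931, plus strand), and the median over its 6 nearest tested genes was 0.11 in normoxia and 0.18 in hypoxia.
Epha2, on chromosome 4 (chr4:141028540-141056695, plus strand), was the most abundant member, at 127.0 to 137.7 CPM in WT normoxia and 129.1 to 138.0 in FIH-KO normoxia. In hypoxia it stood at 181.6 and 178.8 CPM in WT cells and at 143.6 and 108.0 in FIH-KO cells. The genotypes overlapped in normoxia, and in hypoxia both WT libraries lay above both FIH-KO libraries. FIH-KO over WT was 0.01 (standard error 0.13) in normoxia and -0.52 (standard error 0.13) in hypoxia. The hypoxia value was -0.32 without FIH-KO hypoxia replicate 2, the lowest library. Noncoding genes on the other strand overlap 8.5% of the exon length of Epha2, 9.7% of that of Efnb2 and 10.3% of that of Efna4, and whether counting used strand is not stated.
Epha4 and Ephb2, receptor genes best known from the nervous system, had 0 reads in all 8 libraries and did not pass the filter. A count of 0 allows up to 3 reads in a library, that is 0.168 to 0.205 CPM, a limit that covers counting error only.
Of the 8 members that passed the filter, 1 was past the threshold as higher (Efnb1) and 2 as lower (Efna5 and Ephb4) in FIH-KO normoxia, where 15.2% of the 13933 tested genes were called higher and 13% lower. In hypoxia 1 was higher (Efnb1) and 3 were lower (Efna5, Ephb4 and Epha2), where 14.1% of all tested genes were called higher and 13.9% lower. Without WT hypoxia replicate 1, WT hypoxia replicate 2 or FIH-KO hypoxia replicate 2, Epha2 was no longer past the threshold. The rule used this contrast, and nothing is read from these shares. The members' median log2 fold change was 0.18 in normoxia and -0.18 in hypoxia, against 0.00 and -0.03 over all tested genes.

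**Figure D2:**
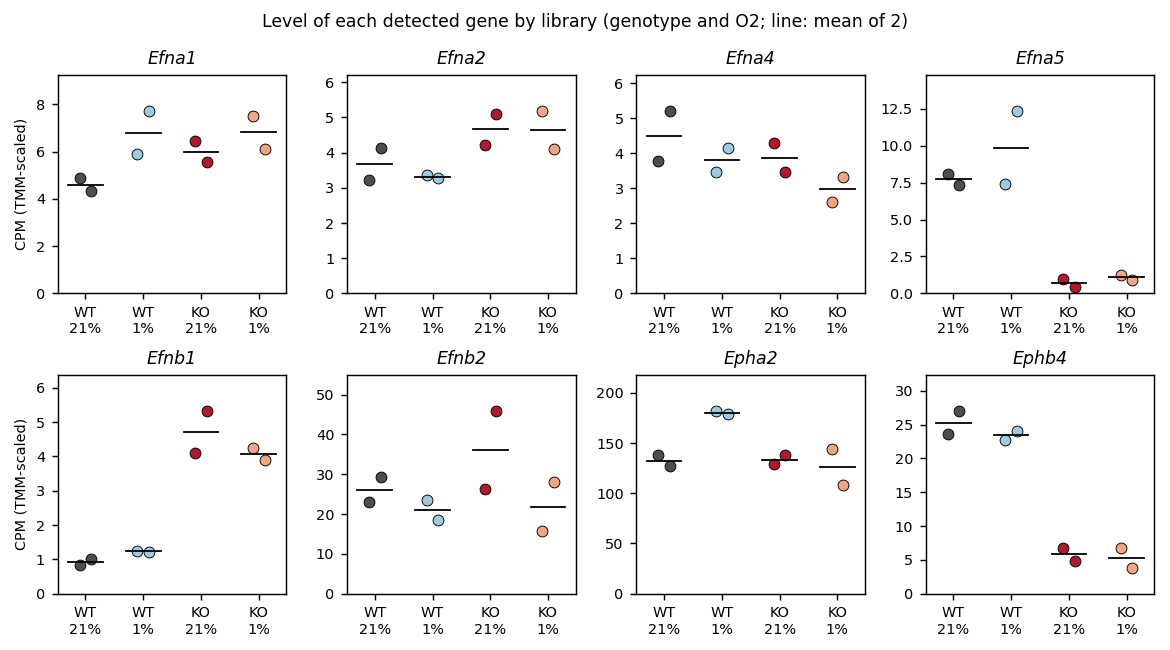
CPM after TMM scaling (vertical axes, from 0) of the 8 detected genes in each library, by genotype and O2, with a point for each library and a line at the mean of 2. The FIH-KO points of Efna5 (at most 1.25 CPM) and Ephb4 (at most 6.75) lie below all WT points, those of Efnb1 (at least 3.91) lie above them, and the WT hypoxia points of Epha2 are the highest of their panel.

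The response to hypoxia was not used in choosing the genes and was tested. In WT cells Epha2 rose from 137.7 and 127.0 CPM to 181.6 and 178.8, and the groups did not overlap. Its log2 fold change of hypoxia over normoxia was 0.45 (standard error 0.13, 95% interval 0.16 to 0.73, adjusted p = 0.0221, edgeR), or 1.36-fold. It was the only member of the 8 tested that was called in WT cells, where 16.9% of all genes were called higher and 15.5% lower. With any 1 of the 4 WT libraries left out, the log2 fold change of Epha2 stayed between 0.35 and 0.46 and the call was lost: the adjusted p was 0.0954 without WT normoxia replicate 1, 0.208 without replicate 2, 0.126 without WT hypoxia replicate 1 and 0.0844 without replicate 2.
The Epha2 promoter (chr4:141028282-141028531, plus strand, the 250 bases before the start) is shown because Epha2 met the test and its promoter holds 2 motif kinds. Capitals mark 2 matches to GCGTG, which begin 167 and 45 bases before the start (the first reads CACGC), and 2 to GGAATG, the core bound by TEAD factors of the Hippo pathway, which begin 243 and 56 bases before it and read CATTCC.
Epha2: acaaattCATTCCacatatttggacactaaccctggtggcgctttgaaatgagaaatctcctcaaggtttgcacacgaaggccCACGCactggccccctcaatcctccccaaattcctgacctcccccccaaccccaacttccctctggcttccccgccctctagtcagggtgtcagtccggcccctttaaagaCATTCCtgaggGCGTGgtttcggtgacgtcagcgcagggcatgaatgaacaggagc
Of the 11 promoters that the table gives for the 10 genes, 6 hold ACGTG or GCGTG on either strand, against 43.8% of all promoters. GGAATG is in 2 of the 11 (Epha2 and Efnb2), against 14.7% of all. CACGTG, the E-box that overlaps ACGTG, is in 0 of the 11 and in 7.2% of all. A match is a run of letters, not a shown binding site, and Ephb4, Efna2 and Efna4 hold none of these motifs in this window.
Efna1 had a larger WT value than Epha2 but a wider error, at 0.56 (standard error 0.24, 95% interval 0.03 to 1.09), and both hypoxia libraries lay above both normoxia libraries. It did not pass the test (adjusted p = 0.0997, edgeR). Efnb1 gave 0.41 (95% interval -0.39 to 1.21, adjusted p = 0.425) and Efna5 0.35 (95% interval -0.30 to 1.00, adjusted p = 0.401). Without WT hypoxia replicate 2, the highest library of Efna5, its value was -0.07. Efnb2 gave -0.31 (95% interval -0.93 to 0.31, adjusted p = 0.442), and Efna2, Efna4 and Ephb4 lay between -0.24 and -0.11 with adjusted p values of 0.545 to 0.733. The intervals of all 6 genes after Efna1 span 0, so neither direction is shown for them.
In FIH-KO cells 0 of the 8 members passed the test, where 8.84% of all genes were called higher and 8% lower. Only 1 member had an unadjusted p under 0.05, against 31% of all tested genes. That member was Efnb2, at -0.72 (standard error 0.28, 95% interval -1.34 to -0.11, adjusted p = 0.101, edgeR), with overlapping libraries. DESeq2 put Efnb2 past the threshold at -0.72 (adjusted p = 0.0489), as did edgeR without FIH-KO normoxia replicate 1 (-1.05, adjusted p = 0.0472) and without FIH-KO hypoxia replicate 2 (-1.20, adjusted p = 0.0141). Epha2 gave -0.09 (95% interval -0.37 to 0.20, adjusted p = 0.713) and Efna5 0.63 (95% interval -0.41 to 1.68, adjusted p = 0.409). The other 5 members lay between -0.38 and 0.19, with adjusted p values of 0.408 to 0.994.
Whether the FIH-KO effect differed between 21% and 1% O2 was tested as an interaction. It was called for 0 of the 8 members and for 0 of all genes (0%) with edgeR, although 925 genes had an unadjusted p under 0.05, and DESeq2 called 37 genes. Epha2 gave the smallest p of the members, with a difference of -0.53 (standard error 0.19, 95% interval -0.94 to -0.13, adjusted p = 0.596, edgeR). The call of Epha2 in WT and not in FIH-KO cells is therefore not shown to be a difference between the genotypes. Efna5 gave 0.29 (95% interval -0.93 to 1.50, adjusted p = 0.948), Ephb4 -0.01 (95% interval -0.75 to 0.72, adjusted p = 0.998) and Efnb1 -0.62 (95% interval -1.61 to 0.37, adjusted p = 0.816).

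**Figure D3:**
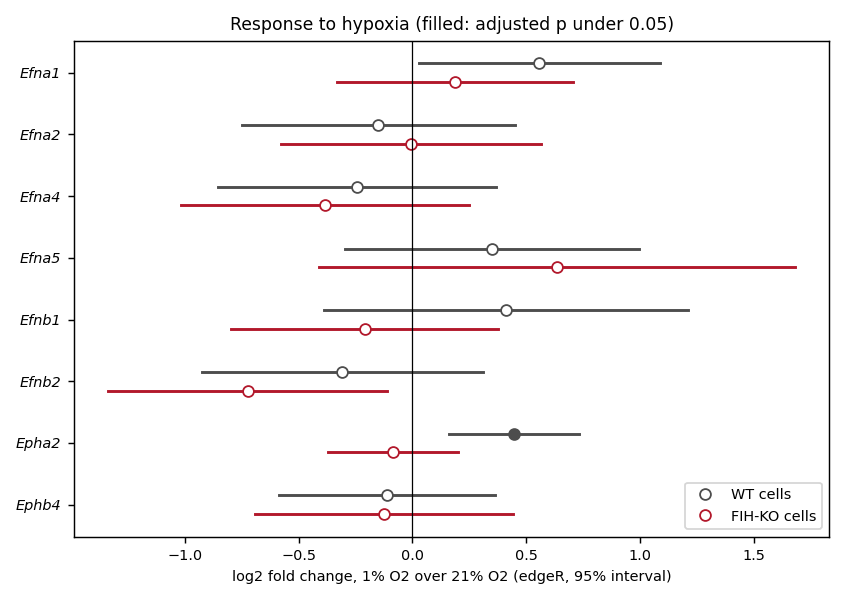
Log2 fold change of 1% over 21% O2 (horizontal axis) in WT (gray) and FIH-KO cells (red) for the 8 tested genes, with 95% intervals from edgeR, and filled circles where the adjusted p is under 0.05. The WT value of Epha2, 0.45, is the only filled circle, and the interval of Efna5 in FIH-KO cells, from -0.41 to 1.68, is the widest.

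The 12 other Eph and ephrin genes of the annotation show what surrounded the members. Epha5, Epha6, Epha7 and Ephb1 had 0 reads in every library, while Epha1, Epha3, Epha8 and Epha10 had at most 9 reads and were not tested. Efna3, Efnb3, Ephb3 and Ephb6 passed the filter. Efna3 had 5 to 8 reads in WT normoxia and 20 to 22 in FIH-KO normoxia, against 9 to 20 and 16 to 21 in hypoxia. FIH-KO over WT, its log2 fold change was 1.58 at 21% O2 (standard error 0.56, adjusted p = 0.0511, edgeR). At 1% O2 it was 0.37 (standard error 0.50, adjusted p = 0.620). In WT cells hypoxia gave 1.17 (adjusted p = 0.146). Gm15998 on the other strand overlaps 30.7% of its exon length. Ephb3, an EphB receptor gene, was at 10.5 to 12.1 CPM in WT and 20.4 to 27.5 in FIH-KO libraries. On the log2 scale it rose by 1.15 (standard error 0.17, adjusted p = 0.000585, edgeR) at 21% O2 and by 0.87 (standard error 0.17, adjusted p = 0.0032) at 1% O2. The median over its 6 nearest tested genes was 0.25 and 0.20. Among them 2510009E07Rik rose by 1.17 (adjusted p = 0.0033) and 0.91 (adjusted p = 0.0167), and Vps8 by 0.86 (adjusted p = 0.0014) and 0.69 (adjusted p = 0.0048). The rest lay between -0.18 and 0.35 and were not called. The part of position in the Ephb3 values was not tested.
Ephb6, whose receptor lacks kinase activity, was at 2.25 to 4.56 CPM in WT and 9.99 to 12.9 in FIH-KO libraries. It rose by 1.47 (standard error 0.23, adjusted p = 0.000719, edgeR) at 21% O2 and by 1.93 (standard error 0.24, adjusted p = 0.000195) at 1% O2 on the same scale. Both EphB receptor genes thus rose where Ephb4 was lower. Both calls also held with each library left out. Exons of Ephb6 overlap those of Trpv6 on the other strand over 14.7% of their length, so the same doubt about strand applies.
Efnb3, the gene of ephrin-B3, moved with oxygen. It rose from 4.11 and 2.72 CPM to 6.84 and 7.78 in WT hypoxia, by 1.10 on the log2 scale (standard error 0.27, adjusted p = 0.0094, edgeR). This call was lost without WT normoxia replicate 2 (0.79, adjusted p = 0.135) or WT hypoxia replicate 2 (1.00, adjusted p = 0.0582). In FIH-KO cells the value was 0.92 (standard error 0.30, adjusted p = 0.0542). Against WT, Efnb3 stood in FIH-KO cells at -0.82 in normoxia (adjusted p = 0.0606) and fell by 0.99 in hypoxia (adjusted p = 0.0172), a call lost without WT hypoxia replicate 1 (adjusted p = 0.0574), WT hypoxia replicate 2 (adjusted p = 0.0923) or FIH-KO hypoxia replicate 1 (adjusted p = 0.0563).

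**Figure D4:**
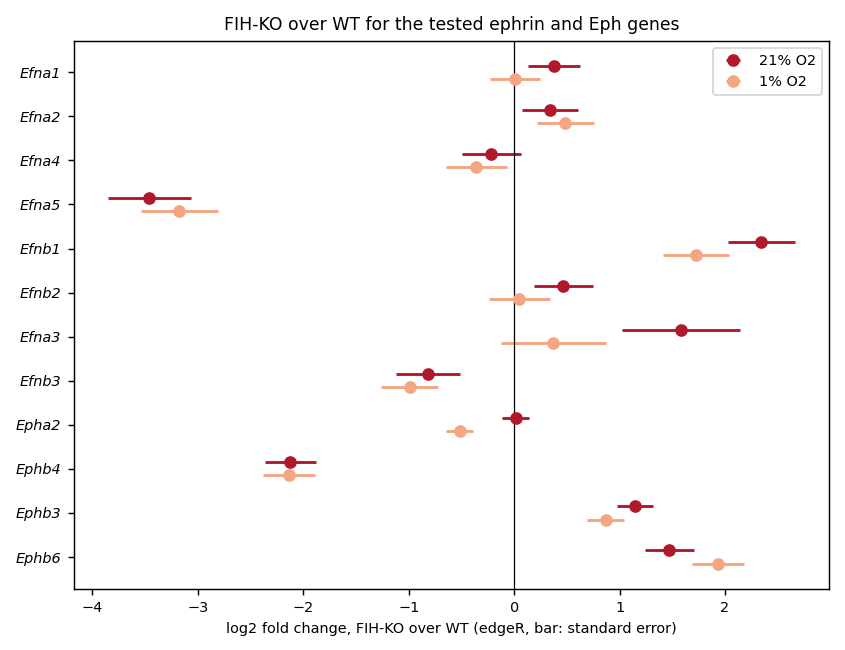
Log2 fold change of FIH-KO over WT (horizontal axis) with its standard error from edgeR, at 21% O2 (dark) and 1% O2 (light), for the 12 Eph and ephrin genes that were tested. Efna5 and Ephb4 lie farthest to the left in both oxygen conditions, and Efnb1, Ephb6 and Ephb3 lie to the right. Efna3 lies to the right at 21% O2 (1.58), with a standard error of 0.56.

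To compare levels between genes, CPM was divided by the length of merged exons in kb. The order of the 8 detected members alone was read within each genotype. Epha2 led in both, at 27.1 to 38.8 CPM per kb over the WT and 23.1 to 30.6 over the FIH-KO libraries, far above the others. In WT libraries Ephb4 (4.53 to 5.37 CPM per kb) came next, clear of Efnb2 (2.56 to 4.04), whose range overlapped that of Efna4 (2.12 to 3.18). Efna5 (1.40 to 2.35), Efna1 (1.26 to 2.25) and Efna2 (1.47 to 1.90) overlapped one another, and Efnb1 (0.210 to 0.310) was the lowest. In FIH-KO libraries Efnb2 (2.18 to 6.32 CPM per kb) came second and overlapped Efna2 (1.88 to 2.38) and Efna4 (1.601 to 2.62), which overlapped Efna1 (1.61 to 2.18). Efnb1 (0.981 to 1.34) and Ephb4 (0.764 to 1.34) overlapped each other below these, and Efna5 (0.0852 to 0.238) was the lowest.
Each gene's share of the summed level of its class was then taken, as a description without a test. Within the EphB class, Ephb4 made up 67.4% to 71.3% in the 4 WT libraries and 14.4% to 22.9% in the 4 FIH-KO libraries. Ephb3 went from 21.7% to 25.9% in WT up to 53.4% to 57.1% in FIH-KO libraries, and Ephb6 from 4.44% to 8.85% up to 22.6% to 29.8%. The leading EphB transcript was thus Ephb4 in WT and Ephb3 in FIH-KO cells. The summed EphB level itself was 6.71 to 7.62 CPM per kb in WT and 5.29 to 6.96 in FIH-KO libraries. In normoxia the genotypes overlapped (6.82 and 7.62 in WT, 6.96 and 5.73 in FIH-KO cells). In hypoxia both WT libraries (6.72 and 6.71) lay above both FIH-KO libraries (5.86 and 5.29).
In the ephrin-A class Efna5 held 17.6% to 25.6% in WT and 1.29% to 3.49% in FIH-KO libraries. Efna1 held 15.9% to 24.5% and 24.4% to 32.1%, Efna2 16.3% to 24.0% and 27.2% to 35.4%, and Efna4 27.6% to 40.1% and 23.5% to 36.6%. Efna3, not a member, held 1.89% to 6% in WT and 5.93% to 8.61% in FIH-KO libraries. The summed ephrin-A level was 6.88 to 9.19 CPM per kb in WT and 6.41 to 7.14 in FIH-KO libraries. Efnb2 was the main ephrin-B transcript in every library, at 50.5% to 79.8% in WT and 51.0% to 76.5% in FIH-KO cells. Efnb1 held 4.62% to 6.08% of that class in WT and 16.2% to 25.0% in FIH-KO libraries. Efnb3, not a member, held 15.2% to 43.4% in WT and 7.29% to 24% in FIH-KO libraries. The summed ephrin-B level was 4.54 to 5.49 CPM per kb in WT and 4.27 to 8.26 in FIH-KO libraries. Epha2 made up at least 99.6% of the EphA class in every library.

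**Figure D5:**
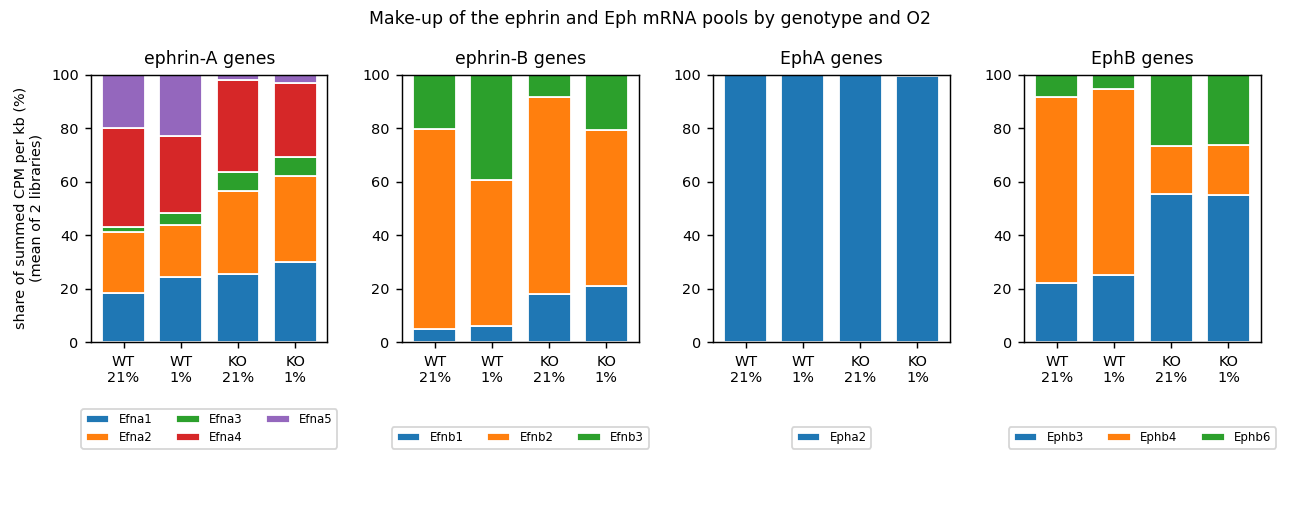
Share of the summed CPM per kb (vertical axis, %) of each class held by its genes, as the mean of 2 libraries, for each genotype and O2 (genes under 1% in all groups left out). Ephb4 (orange, EphB panel) gives way to Ephb3 (blue) in FIH-KO cells, and the Efna5 band (purple, ephrin-A panel) narrows.

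Downstream, genes of Eph forward signaling (adaptors, guanine nucleotide exchange factors and kinases that act on the cytoskeleton) were followed as a list, and 29 of 32 were tested. In FIH-KO over WT, 3 rose and 3 fell in normoxia, and 4 rose and 5 fell in hypoxia, against 15.2% higher and 13% lower over all tested genes in normoxia and 14.1% and 13.9% in hypoxia. The list's median log2 fold change was 0.11 and -0.01. Ngef, which encodes ephexin-1, the exchange factor that binds EphA receptors, fell most among those with at least 50 counts, by 1.71 in normoxia (adjusted p = 6.4e-05, edgeR) and 1.76 in hypoxia (adjusted p = 4.5e-05). Chn1 averaged under 50 counts and had fewer reads in FIH-KO cells. It had 49 to 65 reads in WT normoxia against 13 to 14, and 64 to 66 in WT hypoxia against 7 to 11. Pxn, the gene of the adhesion protein paxillin, fell by 0.51 (adjusted p = 0.0161) and 0.59 (adjusted p = 0.0080). Abl1, a kinase gene, rose by 0.61 (adjusted p = 0.0027) and 0.49 (adjusted p = 0.0085). The Ngef calls held with each library left out, those of Abl1 were lost without 1 library (adjusted p up to 0.0645) and those of Pxn without 2 (up to 0.168).
With hypoxia, 5 of these 29 genes rose and 4 fell in WT cells, and 2 rose and 2 fell in FIH-KO cells, against 16.9% higher and 15.5% lower over all tested genes in WT and 8.84% and 8% in FIH-KO cells. The Src family kinase gene Fyn rose by 1.14 (adjusted p = 0.000166, edgeR) and Wasl, an actin nucleation gene, by 0.61 (adjusted p = 0.0023) in WT cells, while the GTPase gene Rac1 fell by 0.61 (adjusted p = 0.0051). Rac1 missed the threshold without 1 library (adjusted p = 0.0512). In FIH-KO cells Sipa1l1 rose by 0.52 (adjusted p = 0.0092), Abl1 fell by 0.49 (adjusted p = 0.0140) and Shc1 fell by 0.48 (adjusted p = 0.0269). The latter 3 calls were lost without 1, 1 and 4 of the 8 libraries.
Of the 10 genes of ephrin reverse signaling 9 were tested. In FIH-KO over WT, 3 of the 9 rose and 2 fell in normoxia, and 1 rose and 2 fell in hypoxia, beside the same all-gene shares (15.2% and 13%, then 14.1% and 13.9%). Grip1 and Ptpn13 averaged under 50 counts, the minimum for naming a gene, and had fewer reads in FIH-KO cells. Grip1 had 36 to 55 reads in WT normoxia against 8, and 39 to 52 in WT hypoxia against 7 to 10. Ptpn13 had 25 to 31 reads against 0 to 7, and 41 to 61 against 3 to 4. Rgs3, a regulator of G protein signaling that binds ephrin-B, rose by 1.32 in normoxia (adjusted p = 0.0011, edgeR), also with each library left out. Dvl2 rose by 0.47 (adjusted p = 0.0247) in normoxia and 0.49 (adjusted p = 0.0211) in hypoxia, and Stat3 rose by 0.44 (adjusted p = 0.0257) in normoxia, calls that were lost without 2 or 3 libraries (adjusted p up to 0.301). With hypoxia, Tjp1, the tight junction gene, was the only one of the 9 called in either genotype. Over all tested genes 16.9% were called higher and 15.5% lower in WT, and 8.84% and 8% in FIH-KO cells. It fell by 0.50 in WT (adjusted p = 0.0113) and 0.48 in FIH-KO cells (adjusted p = 0.0241), and these calls were lost without 2 and 4 libraries.
Of 15 genes that cleave or turn over Eph receptors and ephrins (proteases, gamma-secretase subunits, phosphatases and a ubiquitin ligase) 14 were tested. In FIH-KO over WT, 2 of the 14 rose and 2 fell in normoxia, and 4 rose and 1 fell in hypoxia, where 15.2% and 13%, and then 14.1% and 13.9%, of all tested genes were called. Mmp14, a membrane protease that cuts EphA2, rose by 0.89 in normoxia (adjusted p = 0.00011, edgeR) and 1.03 in hypoxia (adjusted p = 4.4e-05). Both calls held with each library left out. Ptprj, a receptor phosphatase gene, rose by 0.91 (adjusted p = 0.00084) and 0.50 (adjusted p = 0.0241), the latter call being lost without 2 libraries (adjusted p up to 0.169). Aph1a fell by 0.40 in normoxia (adjusted p = 0.0253) and Cbl fell by 0.48 in hypoxia (adjusted p = 0.0352), and each call was lost without 4 libraries.
With hypoxia, 1 of these 14 genes rose and 3 fell in WT cells, and 1 rose and 2 fell in FIH-KO cells, where 16.9% and 15.5%, and then 8.84% and 8%, of all tested genes were called. Ptpn1, a phosphatase gene, fell by 0.66 in WT (adjusted p = 0.000618, edgeR) and 0.49 in FIH-KO cells (adjusted p = 0.0070). Both calls held with each library left out, but the FIH-KO call was lost in a fit of only the 4 FIH-KO libraries (-0.46, adjusted p = 0.0527). Psen2 fell by 0.80 (adjusted p = 0.0456) and Anks1 rose by 0.38 (adjusted p = 0.0354) in WT cells, each lost without 4 libraries. Ptprj fell by 0.56 (adjusted p = 0.0202) and Adam17 rose by 0.42 (adjusted p = 0.0189) in FIH-KO cells, each lost without 2.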

How the data were processed

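RNA-Seq libraries from WT and FIH-KO LLC cells were made by the authors with a stranded mRNA kit, sequenced paired-end, aligned to GRCm39 with STAR and counted per gene with HTSeq; the submitters' notes also name GRCm38. The deposited values are raw counts, without normalization. The annotation release, strand setting and treatment of multi-mapped reads are not given in the sources used here. The tests used edgeR 4.0.16 (R 4.3.3). After filterByExpr (13933 genes), counts were scaled by TMM and fitted in 1 quasi-likelihood model holding the 4 group means, which was tested on simulated data, with Benjamini-Hochberg adjustment over all tested genes (threshold 0.05). The common biological coefficient of variation was 11.7%. Groups came from the sample labels. Same-numbered libraries did not deviate together in every pair of groups (correlation of their differences -0.01 to 0.19), so the replicate number was not used as a block.

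The members and lists were chosen with earlier results of these data known. Every member was named; from each further list the text names up to 3 genes per comparison with the largest absolute log2 fold change among those with an adjusted p under 0.05 and a mean of at least 50 counts. Lyz2, Cdh5, Cdh2, Pdgfrb, Krt7, Car9, Efna3, Chn1, Grip1 and Ptpn13, which fall outside that rule, were named after their values were seen. Positions and exon lengths came from GENCODE (97.97% of identifiers matched). Promoters came from the RefSeq table of GRCm38.p6 (all 10 genes matched), placed by exact match in GRCm39. Alternatives were DESeq2 1.42.0, RLE or upper-quartile scaling, no filter beyond 1 read, a minimum of 10 counts in all libraries, fits of only the 4 libraries compared, a replicate block, the longest transcript as gene length, and each library left out.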

Additional observations from a re-analysis of the deposited data

How the results depend on the processing

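The number of members called kept to within 1.5 times its value in the difference between oxygen conditions and in both FIH-KO over WT comparisons under every alternative run. In FIH-KO cells hypoxia called 1 member in place of 0 (Efnb2) with DESeq2, with no filter and with the replicate block (-0.72, adjusted p = 0.0450). Leaving out each library gave 0 to 1 members in WT and 0 to 1 in FIH-KO cells. The block changed no other count by more than 1.5 times among the members, and over all genes it called 5 for the difference between oxygen conditions, against 0, 37 with DESeq2 and 143 with no filter; hypoxia in FIH-KO cells called 1289 genes in place of 2345 with only the 4 libraries compared. The replicate numbers are not known to mark shared cultures.

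Several values changed sign, and not only those near 0: Efnb2 in FIH-KO over WT normoxia (0.47), its difference between oxygen conditions (-0.42) and Efna5 with hypoxia in WT cells (0.35) did so with 1 library left out. The Ephb4 difference between oxygen conditions was 0.0132 with upper-quartile scaling, 0.00433 with no filter and 0.0168 with at least 10 counts. Epha2 in FIH-KO over WT normoxia was -0.0018 with upper-quartile scaling and -0.00112 with at least 10 counts. Efna2 with hypoxia in FIH-KO cells was 0.0232 with at least 10 counts and 0.0227 with only 4 libraries, and Efnb2 in FIH-KO over WT hypoxia was -0.0206 with the block. With each library left out, the difference between oxygen conditions ranged from -0.41 to 0.34 (Ephb4), -0.33 to 0.13 (Efna4), -0.10 to 0.97 (Efna5) and -0.88 to 0.10 (Efnb2). FIH-KO over WT in normoxia ranged from -0.46 to 0.00773 (Efna4), -0.068 to 0.0433 (Epha2) and -0.0153 to 0.79 (Efnb2), and in hypoxia from -0.41 to 0.45 (Efnb2) and -0.15 to 0.21 (Efna1). Hypoxia ranged in WT cells from -0.36 to 0.00888 (Efna2) and -0.065 to 0.64 (Efna5), and in FIH-KO cells from -0.16 to 0.16 (Efna2), -0.56 to 0.22 (Ephb4), -0.36 to 0.0113 (Efnb1) and -0.28 to 0.10 (Epha2). The cause was not tested. In a fit of only the 4 libraries compared, the hypoxia calls of Abl1, Shc1, Tjp1, Ptprj, Ptpn1, Adam17 and Fn1 in FIH-KO cells and the Cbl call in FIH-KO over WT hypoxia were lost (adjusted p 0.0527 to 0.0998).

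Efna5, Ephb4 and Efnb1 kept their direction in FIH-KO over WT under every alternative: with each library left out, Efna5 ranged from -4.11 to -3.03 in normoxia and -3.47 to -2.76 in hypoxia. With the longest transcript as length, Ephb4 made up 63.0% to 66.8% of the EphB class in WT and 12.6% to 20.0% in FIH-KO libraries, and Efna1 23.6% to 34.8% and 34.6% to 43.6% of the ephrin-A class. With 2 libraries a group and 8 to 22 reads in the low groups of Efna5 and Efnb1, depth limits the precision of their hypoxia responses.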
